A study of Homo sapiens with 34 samples.

Results

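Olfactory receptor (OR) genes of human chromosome 11 were described across 34 lists of peaks of an H3K9 methylation CUT&Tag experiment. The members were the protein-coding genes on chromosome 11 whose RefSeq symbols read OR, digits, letters, digits. There were 168 of them among 19839 protein-coding genes on the autosomes and the X chromosome, beside 1129 other protein-coding genes of chromosome 11. A member had a peak when a peak overlapped the gene, with 2 kb added on each side, by at least 1 bp. A further 3 symbols of this form (OR8U8, OR8U9 and OR9G9) lie on alternate scaffolds and could not be assigned peaks.

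OR genes encode G protein-coupled receptors for odorants and form the largest gene family of the human genome. They lie in clusters and divide into class I, of ancient origin and found in aquatic vertebrates too (families 51 to 56), and class II. In the olfactory epithelium each neuron expresses a single allele of a single OR gene, while the other copies are held in heterochromatin that carries methylated H3K9. In other tissues most OR genes are silent, with a few known exceptions such as OR51E2 in the prostate.

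CUT&Tag uses an antibody to direct a transposase to marked chromatin, and the antibody is labelled anti-H3K9me without the degree of methylation. PC3 DM cells come from a prostatic adenocarcinoma and COLO320 DM cells from a colorectal adenocarcinoma, and both carry the MYC oncogene on extrachromosomal DNA (ecDNA). Cells received 700 ng of plasmid encoding an sgRNA, were collected on day 3, and gave 50000 nuclei per library. PC3 DM had 2 vector libraries, 3 each for perturbations named ecSE1, ecSE2, ecSE6 and ecSEcombo, and 2 for ecSE7. COLO320 DM had 3 libraries each for vector, ecSE1, ecSE2, ecSE3, ecSE4 and ecSEcombo. The transfection reagent was lipofectamine LTX for PC3 DM and lipofectamine 3000 for COLO320 DM, so cell line and reagent cannot be told apart. The series describes the perturbations as CRISPR-based and epigenomic, and the genome positions of the ecSE elements are not given in the sources used here. None of the groups is a normal tissue or an olfactory neuron.

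The deposited lists held 9385 to 125213 peaks. The 16 PC3 DM lists averaged 36007 ± 23609 peaks (SD) and the 18 COLO320 DM lists 25454 ± 25518. A pair of lists over 100000 peaks stood apart, 102286 in PC3 DM (ecSEcombo replicate 1) and 125213 in COLO320 DM (ecSE1 replicate 2), and the means that they move most are also given without them. A longer list reaches more genes. The share of OR genes with a peak and the gene comparison were therefore tested at equal list length. This took the best 9385 peaks of every list by q-value. Density, covered share, recurrence and merged sites used the lists as deposited unless equal list length is stated. The labels do not tell whether replicates are separate cultures, and every p-value here reflects library-to-library spread that may be purely technical. Read depth is unknown, and no counting interval is given.

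On chromosome 11, 165 of the 168 OR genes fell into 5 clusters of at least 5 members with gaps under 1 Mb (hg38). The first cluster, chr11:4365263-7943708 from OR52B4 to OR10A3, holds 67 OR genes and all 55 class I members. It also surrounds the beta-globin genes. The second, chr11:48214810-48491722 from OR4B1 to OR4A47, holds 7. The third, chr11:54601069-56991843 from OR4C46 to OR5AK2, holds 48 and begins beside the centromere on the long arm. The next, chr11:58021881-59715845 from OR9Q1 to OR10V1, holds 21 and is called the fourth, and the fifth, chr11:123751580-124573374 from OR6X1 to OR8A1, holds 22. Together they span 8.76 Mb, against 126.31 Mb for the rest of the chromosome. OR4C12, OR4C13 and OR2AT4 lie in no cluster.

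In most libraries few OR genes had a peak, and fewer in COLO320 DM than in PC3 DM. In the lists as deposited the share of OR genes with a peak ran from 2.38% to 31.0% in PC3 DM, with a median of 11.6% and a mean of 13.5% ± 7.63 (SD, n = 16). In COLO320 DM the lowest was 0.595% and the highest 36.9%, with a median of 4.76% and a mean of 5.92% ± 7.94 (SD, n = 18). The highest share in each line belonged to its longest list, and without that list the means were 12.3% ± 6.25 and 4.10% ± 1.87. Other protein-coding genes of chromosome 11, whose windows have a median of 22221 bp against 5103 bp for OR genes, had a peak more often: 20.3% ± 8.73 in PC3 DM and 12.2% in COLO320 DM.

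At equal list length the difference between lines remained. The share of OR genes with a peak ran from 0.595% to 6.55% in PC3 DM (mean 3.57% ± 1.54, SD, n = 16) and from 0 to 2.98% in COLO320 DM (mean 1.26% ± 0.761, SD, n = 18). The ranges overlapped, and the difference of 2.31 percentage points passed a two-sided permutation test over libraries (p = 1e-05, the smallest that 100000 resamples can give, and 7.5e-05 adjusted over 15 tests). The same lists also reached more of the other chromosome 11 genes in PC3 DM, 7.36% ± 1.15 against 5.88% ± 0.802. With each library's share of those genes taken away, a measure chosen after seeing the data, a difference of 0.843 points was left (two-sided permutation p = 0.0365). When an overlap of at least 500 bp was required the difference was 0.0827 points (permutation p = 0.487). Most peaks are narrower than 500 bp, so that setting keeps few of them and cannot decide the question. Without the longest list of each line, the libraries' median peak width in the clusters averaged 264 bp in PC3 DM and 343 bp in COLO320 DM. Among vector libraries alone it was 0.794 points (exact permutation p = 0.8), where 2 libraries against 3 cannot give a p under 0.1.

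**Figure D1:**
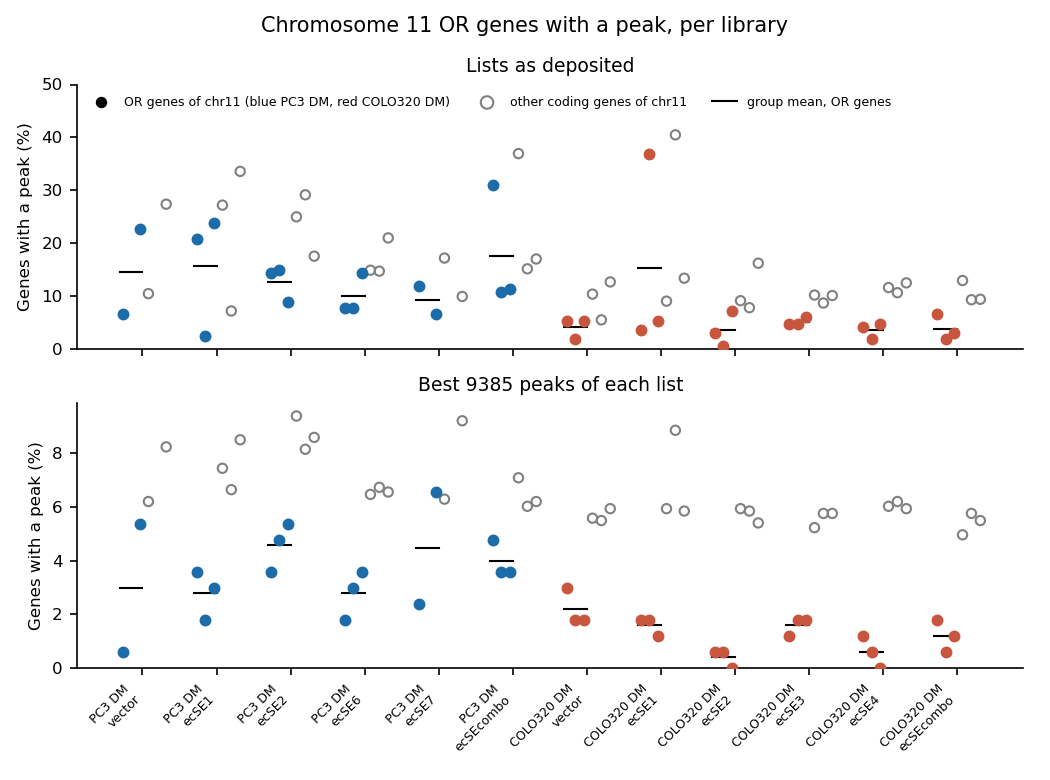
Share of genes with a peak in each library, by group: filled points are chromosome 11 OR genes (PC3 DM blue, COLO320 DM red), open circles are the other coding genes of chromosome 11, and bars are group means of the OR genes. The upper panel uses the lists as deposited and the lower panel the best 9385 peaks of each list, where PC3 DM libraries reach up to 6.55% and COLO320 DM libraries up to 2.98%.

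Within a line, the perturbed libraries were compared with the vector libraries at equal list length. In PC3 DM the vector libraries stood at 0.595% and 5.36% of OR genes with a peak, and the 14 perturbed libraries, between 1.79% and 6.55%, did not separate from them (difference 0.680 points, two-sided exact permutation p = 0.692). In COLO320 DM the vector libraries had peaks at 3, 3 and 5 OR genes (mean 2.18% ± 0.687, SD, n = 3). The 15 perturbed ones had peaks at 0 to 3 OR genes (mean 1.07% ± 0.644, SD, n = 15). The group means in COLO320 DM were 1.59% for ecSE1 and for ecSE3, 1.19% for ecSEcombo, 0.595% for ecSE4 and 0.397% for ecSE2. The perturbed libraries were 1.11 points lower (two-sided exact permutation p = 0.0306, adjusted over 15 tests 0.0460), a difference of about 2 genes. This call was lost without any of the 3 vector libraries, with p from 0.0515 to 0.221, and without ecSE2 replicate 1, ecSE2 replicate 2, ecSE4 replicate 2 or ecSEcombo replicate 2 (exact permutation p = 0.05). In the lists as deposited the perturbed libraries were higher by 2.10 points (exact permutation p = 0.630). That mean includes the longest list, ecSE1 replicate 2, at 36.9%. The other perturbed libraries ran from 0.595% to 7.14% there, and the vector libraries from 1.79% to 5.36%. The effects in the 2 lines differed by 1.79 points, which did not pass a permutation within lines (p = 0.154). Without PC3 DM vector replicate 2 that difference was 4.17 points (permutation p = 0.00357), and without PC3 DM vector replicate 1 it was -0.590 points.

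Peak density was then compared between the clusters and the rest of chromosome 11, as peak summits per Mb within each list. PC3 DM lists held 17.98 ± 13.7 summits per Mb in the clusters and 13.1 ± 9.23 in the rest (SD, n = 16). For COLO320 DM the values were 9.94 ± 11.8 and 7.58 ± 8.19 (SD, n = 18). Without the longest list of each line they were 15.2 and 11.4 in PC3 DM, and 7.22 and 5.69 in COLO320 DM. The ratio of clusters to rest was 1.35 ± 0.113 in PC3 DM (range 1.10 to 1.502, above 1 in 16 of 16 libraries) and 1.30 ± 0.185 in COLO320 DM (range 0.925 to 1.62, above 1 in 17 of 18). On the log2 scale these were 0.42 (sign-flip permutation p = 3e-05) and 0.36 (sign-flip permutation p = 5e-05), and the lines differed by 0.064 (permutation p = 0.300). The mean of the libraries' median fold, the authors' value for each peak, was 5.32 in clusters and 5.34 in the rest in PC3 DM, and 5.55 and 5.59 in COLO320 DM. The median -log10 q was 4.93 and 4.94 in PC3 DM, and lower in clusters, 6.28 against 6.60, in COLO320 DM. With lists of equal length the mean ratio was 1.37 ± 0.217 in PC3 DM (log2 0.44, sign-flip permutation p = 6e-05) and 1.17 ± 0.253 in COLO320 DM (log2 0.20, sign-flip permutation p = 0.0192), below 1 in 1 and 3 libraries.

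Most of this excess lay in the third cluster. There the ratio to the rest was 2.38 ± 0.331 in PC3 DM and 2.43 ± 0.520 in COLO320 DM (SD), above 1 in all 34 libraries. Each line passed a sign-flip permutation test with adjusted p = 0.000108, adjusted over 18 tests of single clusters added after seeing the data. With the third cluster left out, the clusters together were no longer denser than the rest: the mean ratio was 0.965 ± 0.138 in PC3 DM (log2 -0.066, sign-flip permutation p = 0.255) and 0.885 ± 0.182 in COLO320 DM (log2 -0.21, p = 0.0117). The fifth cluster was sparser than the rest in both lines, at 0.669 ± 0.245 and 0.510 ± 0.345 (sign-flip permutation, adjusted p = 0.000309 and 0.00027). The second cluster stood at 1.56 ± 0.579 in PC3 DM (sign-flip permutation, adjusted p = 0.0374) and 1.42 ± 0.825 in COLO320 DM (adjusted p = 0.235). The lines differed in the first cluster, where the ratio was 1.11 ± 0.144 in PC3 DM and 0.889 ± 0.197 in COLO320 DM. In the fourth cluster they differed the other way, at 0.796 ± 0.230 and 1.13 ± 0.280. Both line differences had an adjusted permutation p of 0.00094, and neither passed at equal list length (unadjusted permutation p = 0.0980 and 0.0797).

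**Figure D2:**
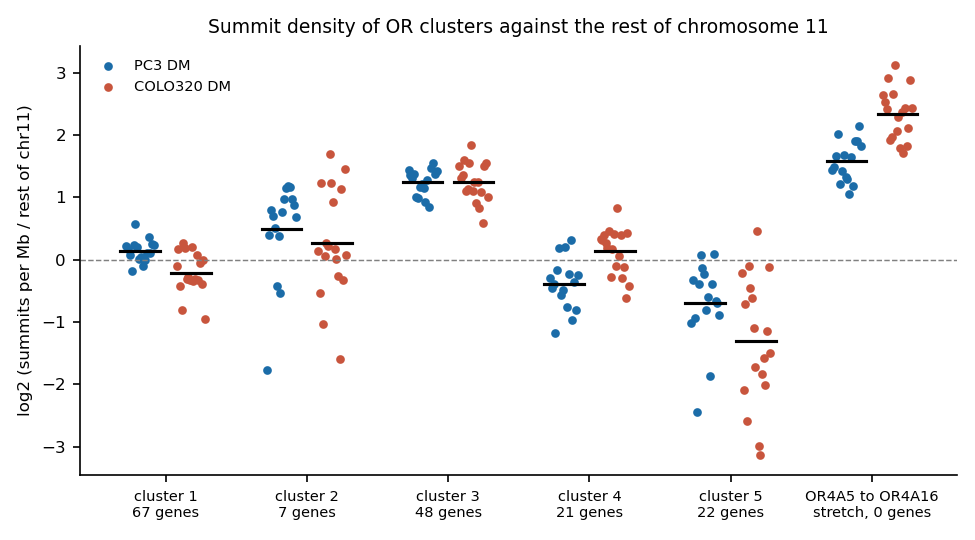
Log2 ratio of summits per Mb in each OR cluster, and in the stretch from OR4A5 to OR4A16, to summits per Mb in the rest of chromosome 11 (vertical axis, log2 units, 0.5 added to each count), 1 point per library, with bars at the line means. In the third cluster and the stretch the points of all 34 libraries lie above 0, and in the stretch COLO320 DM lies higher than PC3 DM (means 2.34 and 1.58).

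Within the third cluster the excess was uneven. Between OR4A5 and OR4A16 runs a stretch of 0.631 Mb with no OR gene of the set, chr11:54709903-55341200. Its ratio to the rest was 3.05 ± 0.689 in PC3 DM (range 2.08 to 4.40) and 5.26 ± 1.54 in COLO320 DM (range 3.29 to 8.70), a log2 difference of -0.76 between lines (permutation p = 1e-05, adjusted 0.000108). The stretch itself held 39.7 ± 33.6 summits per Mb in PC3 DM and 34.8 ± 29.2 in COLO320 DM (SD). At equal list length it held 8.5 ± 2.22 and 9.44 ± 2.28 summits. The rest then held 3.16 and 2.52 summits per Mb, without the longest list of each line. The line difference in the ratio thus lies partly in the rest. On the centromere side, the 2 OR genes OR4C46 and OR4A5 with their surroundings had a ratio of 1.68 ± 0.819 in PC3 DM and 6.55 ± 2.64 in COLO320 DM. On the other side, the run of 45 OR genes from OR4A16 to OR9G4 stood at 2.39 ± 0.456 in PC3 DM (above 1 in 16 of 16 libraries) and 1.25 ± 0.361 in COLO320 DM (14 of 18). The class I run from OR52B4 to OR52W1 in the first cluster, with 55 OR genes, stood at 1.37 ± 0.245 and 0.772 ± 0.306. In the same cluster OR2AG2 to OR2D3 stood at 1.38 ± 0.777 and 0.940 ± 0.491. OR5P2 to OR10A3 there went the other way, at 1.18 ± 0.719 and 2.22 ± 0.999. In the fourth cluster OR9Q1 to OR5B21 stood at 1.10 ± 0.426 and 1.33 ± 0.508, and OR5AN1 to OR10V1 at 0.988 ± 0.647 and 1.36 ± 0.879. The line differences of these shorter runs were not tested.

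How the clusters were drawn therefore decided the comparison. With clusters split at gaps of 200 kb, the stretch and its centromere side were counted in the rest of the chromosome. So were runs under 5 members such as OR5P2 to OR10A3, and the gaps that hold the genes SYT9 and GLYATL1. The mean ratio was then 1.42 ± 0.153 in PC3 DM and 0.864 ± 0.210 in COLO320 DM (log2 -0.26, sign-flip permutation p = 0.0101). The lines then differed by 0.75 on the log2 scale (permutation p = 1e-05). With the stretch alone left out of both clusters and rest, COLO320 DM stood at 0.999 ± 0.173 (sign-flip permutation p = 0.719) and PC3 DM at 1.22 ± 0.112. The log2 difference between lines was 0.31 (permutation p = 0.00011). The stretch was chosen after the data were seen, and COLO320 DM had the higher ratio there. Leaving it out therefore moves the difference toward PC3 DM, and that p-value is not independent of the choice. With the clusters as first drawn, the lines differed by 0.24 at equal list length (permutation p = 0.0162).

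**Figure D3:**
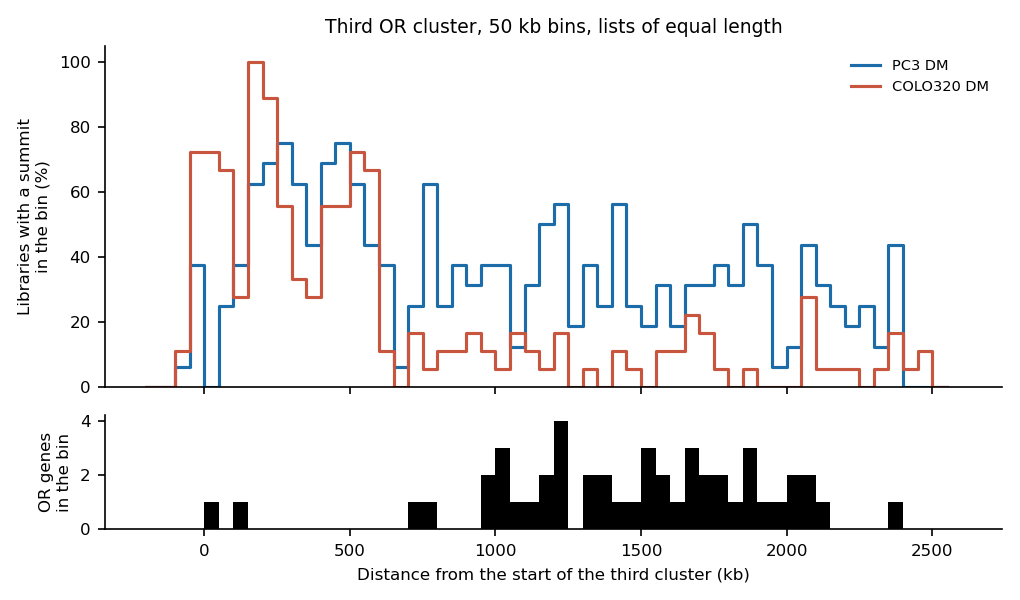
Share of libraries with a peak summit in each 50 kb bin of the third OR cluster at equal list length (upper panel, percent of 16 PC3 DM and 18 COLO320 DM libraries) and the number of OR genes starting in the bin (lower panel), against the distance from the cluster's start in kb. COLO320 DM is highest near the start, where few OR genes lie, and PC3 DM is above COLO320 DM in most bins that hold OR genes.

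The covered share, the percentage of all window bases under a peak, does not grow with gene length as the share of genes does. Peaks covered 0.409% ± 0.228 of the OR windows in PC3 DM (SD, n = 16). In COLO320 DM they covered 0.205% ± 0.233 (SD, n = 18). Other coding genes of chromosome 11 were covered to 0.271% and 0.193%. The difference was 0.138 points in PC3 DM, above 0 in 16 of 16 libraries (sign-flip permutation p = 3e-05), and 0.0118 points in COLO320 DM, above 0 in 8 of 18 (p = 0.784). At equal list length it was 0.0259 in PC3 DM (sign-flip permutation p = 0.0514) and -0.0382 in COLO320 DM (p = 0.0012). Without COLO320 DM ecSE1 replicate 2, the mean covered share of OR windows in that line was 0.152% ± 0.0671 against 0.162% for other chromosome 11 genes.

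OR genes of chromosome 11 were far less covered than the zinc finger (ZNF) genes of chromosome 19, a clustered family known for H3K9 methylation. The 250 ZNF genes were covered to 1.45% ± 0.620 in PC3 DM and 1.40% ± 0.486 in COLO320 DM, more than OR windows in all 34 libraries (differences -1.04 and -1.19 points, adjusted p = 6e-05 each by sign-flip permutation over 6 comparisons). The 218 OR genes on other autosomes were covered to 0.360% ± 0.233 in PC3 DM, below the chromosome 11 genes by 0.0490 points in 11 of 16 libraries (adjusted sign-flip permutation p = 0.0297). That difference was -0.0014 points at equal list length. In COLO320 DM the OR genes of other autosomes were covered to 0.381% ± 0.221, above those of chromosome 11 in 18 of 18 libraries (difference -0.177 points, sign-flip permutation, adjusted p = 6e-05). The 53 clustered protocadherins, cell adhesion genes that also lie in arrays, were covered to 0.4996% ± 0.353 and 0.343% ± 0.350. OR windows were lower in COLO320 DM (difference -0.138 points, adjusted sign-flip permutation p = 0.00951), which did not hold at equal list length (-0.0149 points, sign-flip permutation p = 0.264). In PC3 DM the difference was -0.0904 points (sign-flip permutation p = 0.122), and it passed at equal list length (-0.0657 points, p = 0.0242).

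Among the OR genes themselves the 2 classes had similar values. Class I windows were covered to 0.433% ± 0.256 and class II windows to 0.394% ± 0.229 in PC3 DM. In COLO320 DM they were covered to 0.177% ± 0.225 and 0.222% ± 0.249. Gene bodies were covered to 0.373% and their 2 kb flanks to 0.472% in PC3 DM, and to 0.225% and 0.170% in COLO320 DM. The 195 OR pseudogenes of chromosome 11, with the same flanks, were covered to 0.570% ± 0.446 and 0.375% ± 0.257. Without the longest list of each line, class I and class II stood at 0.399% and 0.357% in PC3 DM and 0.128% and 0.167% in COLO320 DM. Bodies and flanks then stood at 0.342% and 0.426%, and at 0.173% and 0.115%, and pseudogenes at 0.478% and 0.318%. None of these differences was tested.

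Most OR genes had a peak in few lists. Of the 168 members, 14 had a peak in no list, against 252 of 1129 other coding genes of chromosome 11. The median member had a peak in 2 lists of 34 and the most was 26. In the lists of equal length 90 had a peak in none and the most was 10. In the lists as deposited, which are longer on average in PC3 DM, 134 members had a peak in at least 1 PC3 DM list. In COLO320 DM 94 did, and 74 in both lines, while 12 members had a peak in no list other than the 2 longest. At equal list length the counts were 64 in PC3 DM and 23 in COLO320 DM. The same counts over all coding genes are not given here, so these are a description only. Members with a peak in 20 or more lists numbered 2 of 168, against 92 of 1129 among the other genes of chromosome 11. The 14 members without any peak included OR52M1, OR51D1 and OR52W1 of class I and OR10G8, OR10G9 and OR8A1 of the fifth cluster. All 48 members of the third cluster had a peak in at least 1 list, with a median of 3.5 lists, and in the fifth cluster the median was 1.

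Recurrence went with the length of the window. The 92 members of up to 2000 bp had a peak in at most 6 lists, and the 7 members in 10 or more lists were all longer than that. Across the 168 genes, Spearman's rho between the number of lists and the window length was 0.404, given as a description, since genes share the libraries and some windows overlap (39 members overlap another member's window).

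**Figure D4:**
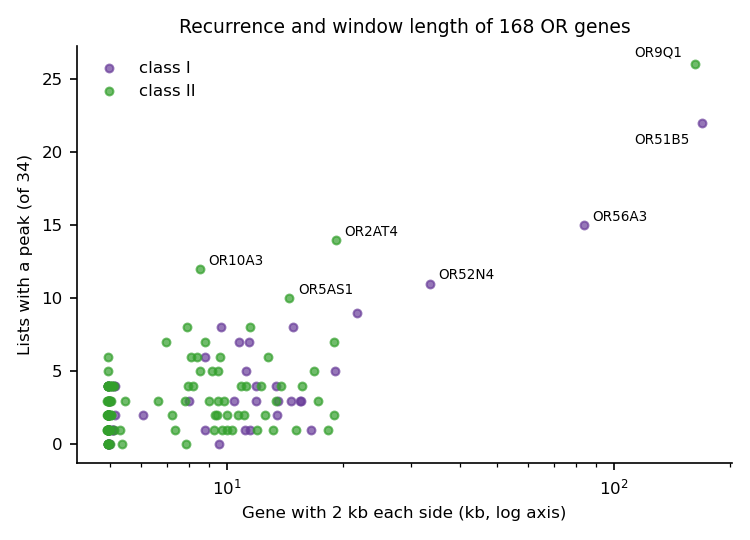
Number of lists with a peak (of 34, lists as deposited) against the length of the gene with 2 kb on each side (kb, log axis), 1 point per OR gene, class I purple and class II green. The longest windows, OR9Q1, OR51B5 and OR56A3, lie highest, at 26, 22 and 15 lists.

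Peaks that overlapped between lists were merged into sites. OR windows held 514 sites, of which 432 (84.0%) came from 1 list and 3 from 6 or more. Sites outside the clusters came from 1 list about as often (83.4%), and sites in the clusters in 80.0%. In the clusters 6 sites appeared in 17 or more lists (0.685 per Mb), none of them over an OR gene, against 157 in the rest of the chromosome (1.24 per Mb). The most shared, in 20 lists each, were chr11:7284826-7287478 over SYT9, in 2 PC3 DM and 18 COLO320 DM lists, and chr11:54815738-54816810 in the stretch, in 11 and 9. The next was chr11:58916304-58917852 over GLYATL1, in 4 and 15. Of 10 cluster sites in 15 or more lists, 5 lay in the stretch from OR4A5 to OR4A16. Another of these, chr11:54781010-54782302, was in 2 PC3 DM and 16 COLO320 DM lists.

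In the long gene models the peaks were scattered. OR9Q1 (chr11:58023881-58181616, class II, in the fourth cluster) had a peak in 14 PC3 DM and 12 COLO320 DM lists. Its covered length ran from 0 to 1274 bp in PC3 DM (median 347.5) and from 0 to 2049 bp in COLO320 DM (median 285), so the ranges of the lines overlapped. Its peaks made 46 sites, none in more than 3 lists. OR51B5 (chr11:5340318-5505652, class I, beside the beta-globin genes) had a peak in 13 PC3 DM and 9 COLO320 DM lists, at 67 sites with at most 3 lists each. Its covered length ran from 0 to 2410 bp in PC3 DM (median 783.5) and from 0 to 1304 bp in COLO320 DM (median 194.5). Its window overlaps those of 6 other OR genes, to which its peaks may also count. OR56A3 (chr11:5942251-6022010, class I) had a peak in 8 and 7 lists, and OR52N4 (chr11:5726472-5755958, class I) in 6 and 5.

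In OR2AT4 and OR10A3 most lists shared 1 site. OR2AT4 (chr11:75081753-75096890), a class II gene outside the clusters whose receptor is known from skin keratinocytes, had a peak in 6 PC3 DM and 8 COLO320 DM lists. In 11 of these lists the peak lay at chr11:75089820-75091168, within the gene. OR10A3 (chr11:7937171-7941708), the last gene of the first cluster, had a peak in 4 PC3 DM and 8 COLO320 DM lists. Of these, 9 shared the site chr11:7942945-7943713, which lies before the gene's start on the minus strand. OR5AS1 (chr11:56027654-56038191) had a peak in 7 PC3 DM and 3 COLO320 DM lists, at 7 sites. Of these lists, 5, all PC3 DM, had overlapping peaks that merge to chr11:56026853-56027677, and 1 of the 5 peaks reached the gene's start. Its covered length ran from 0 to 422 bp in PC3 DM and from 0 to 330 bp in COLO320 DM, with a median of 0 in both. OR4C6 (chr11:55662201-55666096) had a peak in 3 PC3 DM and 5 COLO320 DM lists, among them all 3 COLO320 DM vector lists, at 6 sites with at most 3 lists each.

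Other recurrent members had peaks mostly in PC3 DM. OR9G4 (chr11:56741223-56748697), near the end of the third cluster, had a peak in 8 of 16 PC3 DM lists and 0 of 18 COLO320 DM lists. Its covered length reached 721 bp in PC3 DM, with a median of 87.5. OR51E2 (chr11:4680171-4697853), the class I receptor first described as a prostate-specific G protein-coupled receptor, had a peak in 8 PC3 DM lists and in 1 COLO320 DM list, the longest. No list had a peak there at equal list length. Its neighbour and relative OR51E1 had a peak in 3 PC3 DM lists and in 0 of COLO320 DM, and kept all 3 at equal list length. OR52K1 (chr11:4482646-4493497) and OR51A7 (chr11:4903783-4909462), both class I, each had a peak in 7 PC3 DM lists, including both vector lists, and in 1 COLO320 DM list.

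**Figure D5:**
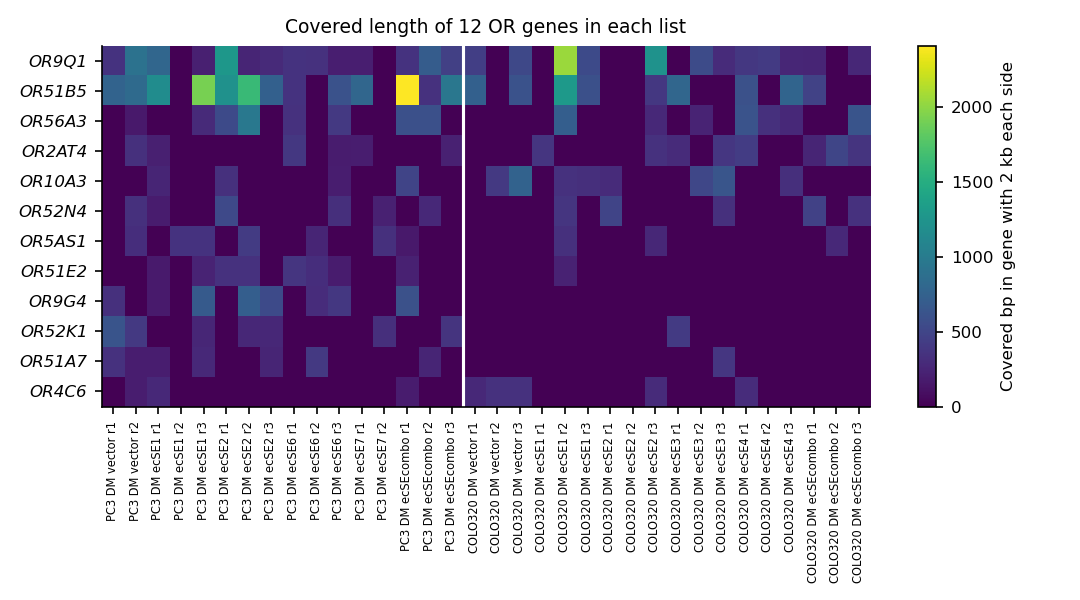
Covered length in bp (colour) of the 12 OR genes with a peak in the greatest number of lists, by library, with PC3 DM left of the white line and COLO320 DM right of it. OR9Q1 is covered in 14 PC3 DM and 12 COLO320 DM libraries, OR51B5 in 13 and 9, and OR9G4 in 8 and 0.

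Each coding gene was compared between lines by the number of libraries with a peak, with Fisher's exact test, two-sided, and Benjamini-Hochberg adjustment over all genes tested. At equal list length 4703 genes had enough libraries with and without a peak, 305 (6.49%) were called more often in PC3 DM and 322 (6.85%) more often in COLO320 DM. Of the OR genes 12 could be tested and 0 were called, 0 had an unadjusted p below 0.05, and the smallest adjusted p was 0.225. Several of the 12 had a peak in only 3 lists, where no split can give an unadjusted p below 0.05. For 3 PC3 DM lists and 0 of COLO320 DM, Fisher's exact test gave an unadjusted p of 0.0936, and for 0 and 4 it gave 0.105. The lack of calls was thus partly fixed by the few lists with a peak. The members with the largest differences toward PC3 DM were OR51B5 (7 and 3 lists), OR9Q1 (5 and 1), and, at 3 and 0 each, OR5M3, OR5AS1, OR52K1, OR51E1 and OR5D14. Toward COLO320 DM they were OR10A3 and OR2AT4 (0 and 4 lists each) and OR51G2, OR56B2, OR5AR1 and OR5B3 (0 and 2 each).

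In the lists as deposited 10044 genes were tested, 577 (5.74%) called more often in PC3 DM and 124 (1.23%) more often in COLO320 DM. Of 81 OR genes tested 2 were called, both more often in PC3 DM, a share of the members below that of all genes. They were OR9G4 (8 of 16 and 0 of 18 lists, Fisher's exact test, adjusted p = 0.0196) and its neighbour OR9G1 (7 of 16 and 0 of 18, adjusted p = 0.0365), both at the end of the third cluster. In all, 15 had an unadjusted p below 0.05, each toward PC3 DM (15 of 81, against 2618 of 10044 over all genes), among them OR51E2 (Fisher's exact test, adjusted p = 0.0601). PC3 DM lists are longer on average. Cut to equal length, the lists had a peak at OR9G4 in 2 PC3 DM libraries and 0 COLO320 DM libraries, and the same held for OR9G1.

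Promoter windows of 300 bases, 250 before and 50 after the start, were given by RefSeq (GRCh38.p14) for 135 of the 168 members (138 windows). Of 61 gene models of up to 1000 bp, 60 began at the ATG. Their windows thus span the coding start, which need not be where transcription starts. In 119 windows no list had a peak, in 18 there was a peak in 1 or 2 lists, and in 1, that of OR5AS1, in 4 lists, all PC3 DM. The share of all promoter windows with a peak is not given here. The hexamer TAATTA, which homeodomain factors such as LHX2 can bind and which reads the same on both strands, was present in 34 member windows (24.6%), against 5.13% of other chromosome 11 windows and 4.84% of all 35116. Member windows were richer in A and T, with a mean of 62.2% against 42.5% over all. The palindrome of EBF factors, TCCC and GGGA with 2 bases of any kind between them, was present in 1.45% of member windows and 1.21% of all. The 250 bases before the start are shown for OR5AS1, the promoter with a peak in most lists, and for OR52B4 and OR56A1, which had a peak in 2 lists and hold TAATTA, in capitals. They lie at chr11:56027404-56027653 (plus strand), chr11:4368387-4368636 (minus strand) and chr11:6030759-6031008 (minus strand). The bases shown for OR56A1 lie within its gene model (chr11:6019336-6034338), before a start inside the model.
OR5AS1: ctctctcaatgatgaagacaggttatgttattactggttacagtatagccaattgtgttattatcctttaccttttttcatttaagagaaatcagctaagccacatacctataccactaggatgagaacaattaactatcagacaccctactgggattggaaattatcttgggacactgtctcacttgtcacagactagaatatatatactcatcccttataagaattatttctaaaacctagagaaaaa
OR52B4: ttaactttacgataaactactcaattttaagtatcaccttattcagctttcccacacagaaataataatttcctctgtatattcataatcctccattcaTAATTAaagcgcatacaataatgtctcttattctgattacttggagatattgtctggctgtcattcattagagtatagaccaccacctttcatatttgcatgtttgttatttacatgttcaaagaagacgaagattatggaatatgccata
OR56A1: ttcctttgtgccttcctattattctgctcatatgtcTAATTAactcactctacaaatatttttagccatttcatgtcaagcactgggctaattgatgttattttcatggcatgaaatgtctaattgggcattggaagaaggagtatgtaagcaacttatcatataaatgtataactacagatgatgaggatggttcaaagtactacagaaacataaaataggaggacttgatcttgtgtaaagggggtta

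Genes of olfactory signalling and OR choice were taken as a list of 21, since OR receptors act through the G protein encoded by GNAL, the adenylyl cyclase ADCY3 and a cyclic nucleotide-gated channel. At equal list length 10 of the 21 were tested and 1 was called, against the 6.49% of all genes toward PC3 DM: PDE1C, a phosphodiesterase of 811448 bp, had a peak in 16 of 16 PC3 DM and 4 of 18 COLO320 DM lists (Fisher's exact test, adjusted p = 0.000143). In the lists as deposited it had a peak in 16 and 14, and 0 of 12 tested genes of the list were called, while 2 (GNB1 and STOML3) had an unadjusted p below 0.05. GNAL had a peak in 11 PC3 DM and 8 COLO320 DM lists and ADCY3 in 8 and 10. The channel subunit CNGA4, on chromosome 11, had a peak in 0 and 2. OMP, the marker of mature olfactory neurons, had a peak in no list. The median difference in the share of libraries was 0 points at equal list length for this list, for the OR genes and for all coding genes. For the OR genes that 0 was fixed, since 90 of 168 had a peak in no list of equal length. In the lists as deposited the medians were 3.47, 6.25 and 6.25 points.

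Among 14 other genes set between or around the OR genes of the first cluster, 1 was called of 3 tested at equal list length and of 9 tested as deposited, against 6.49% and 5.74% of all genes toward PC3 DM. MMP26, a metalloprotease whose gene model of 287646 bp overlaps 10 OR genes, had a peak in 14 PC3 DM and 4 COLO320 DM lists at equal list length (Fisher's exact test, adjusted p = 0.00384) and in 16 and 8 as deposited (adjusted p = 0.0143). The globin gene HBB had a peak in 6 and 1 lists as deposited (Fisher's exact test, adjusted p = 0.157), HBG1 in 4 and 1, HBG2 in 3 and 2, HBD in 2 and 0 and HBE1 in 1 and 0. Of the antiviral TRIM genes in the cluster, TRIM5 had a peak in 10 and 12 lists and TRIM22 in 3 and 2.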

How the data were processed

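The data were 34 peak lists on hg38, 1 per library, with groups and replicate numbers from the sample titles. The submitters' processing notes name MACS2 2.2.7.1, Bowtie2 2.3.5, Trim Galore 0.6.6, bedtools and SAMtools, without their roles. The deposited list names state an FDR of 0.001 and blacklist removal. Control libraries, duplicate handling and the treatment of reads that map to several places are not given in the sources used here, and OR genes have near-identical copies. Each deposited list gives a score, not used here, a fold (the authors' ratio of the summit to local background) and the p- and q-value as -log10, all per peak. The -log10 q and then the fold, as deposited by the authors, ranked the peaks within a list.

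Genes came from RefSeq on GRCh38.p14, which gave no exons, so exon and UTR positions are not reported. Values were compared over libraries with two-sided permutation tests, exact where few splits exist and otherwise with 100000 resamples, and sign-flip permutation within a line. Benjamini-Hochberg adjustment was over 15 tests. Density ratios had 0.5 added to each count. The gene comparison used Fisher's exact test on genes with a peak in at least 3 libraries and none in at least 3 others, threshold 0.05. On simulated data at equal list length (4952 genes tested) it recovered 100% of 100 complete separations and 58% of 100 differences of 60 points, and called 7 of 4752 unchanged genes. No OR gene differed that much at equal list length. The largest difference was that of OR51B5, in 7 PC3 DM and 3 COLO320 DM lists, so these recovery rates do not apply to the OR genes. Named members were the 12 with a peak in most lists, up to 10 per direction called between lines at equal list length or, with none, the 4 with the largest difference. Members tied with the last of these are named too. OR9G1, the merged sites named, the stretch from OR4A5 to OR4A16 and the tests of single clusters were chosen after their values were seen. Members, lists and tests were chosen with earlier results of these data known. Alternatives were the lists as deposited or of equal length, -log10 q of at least 5, 500 bp of overlap, genes without flanks, other cluster limits, covered bp, the longest lists left out, a replicate block and each replicate left out. Software was Python 3.11.15 with scipy 1.17.1, numpy 2.4.6, matplotlib 3.10.9 and pandas 2.3.3.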

Additional observations from a re-analysis of the deposited data

Results flagged for a closer look

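The PC3 DM and COLO320 DM libraries differed in the density of peak summits, relative to the rest of chromosome 11, at 3 places, each tested directly by a two-sided permutation over the 34 libraries. In the first cluster, with all class I genes, the log2 ratio was higher in PC3 DM by 0.35 (permutation test, adjusted p = 0.00094). Its run OR5P2 to OR10A3 went the other way, with ratios of 1.18 in PC3 DM and 2.22 in COLO320 DM, not tested. In the fourth cluster the log2 ratio was lower in PC3 DM, by -0.52 (permutation test, adjusted p = 0.00094). Its runs of OR genes, OR9Q1 to OR5B21 and OR5AN1 to OR10V1, had ratios of 1.10 and 0.988 in PC3 DM. In COLO320 DM they had 1.33 and 1.36, and these runs were not tested. In the stretch from OR4A5 to OR4A16, which holds no OR gene of the set, the log2 ratio was lower in PC3 DM, by -0.76 (permutation test, adjusted p = 0.000108). The stretch itself held 39.7 summits per Mb in PC3 DM and 34.8 in COLO320 DM, so this difference is one of the ratio. The tests were made after the clusters' values were seen. Those of the first cluster and the fourth cluster did not pass at equal list length (0.38, permutation p = 0.0980, and -0.57, permutation p = 0.0797), and that of the stretch did (-0.48, permutation p = 0.00062).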

How the results depend on the processing

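Of the alternatives run, 16 that left out a PC3 DM library and 18 that left out a COLO320 DM library kept the density ratio of the clusters in its line above 0, from 0.41 to 0.44 and from 0.34 to 0.39 on the log2 scale. The line difference in that ratio ranged from 0.036 to 0.084, and the line difference in the share of OR genes with a peak from 2.12 to 2.51 points, past the threshold each time. The sign of the density result depended on the cluster limits: without the third cluster it was -0.066 in PC3 DM and -0.21 in COLO320 DM, without the OR4A5 to OR4A16 stretch -0.025 in COLO320 DM, and with clusters split at 200 kb -0.26 in COLO320 DM. The line difference became significant at equal list length (0.24), with the split (0.75) and without the stretch (0.31). The stretch was chosen after the data were seen. In the third cluster the line difference changed sign at equal list length (0.22) and at -log10 q of at least 5 (0.18), and ranged from -0.047 to 0.026 with a library left out. The share difference between lines lost its call with 500 bp of overlap (0.0827), a width most peaks do not reach, and in vector libraries alone (0.794).

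The covered share against other chromosome 11 genes lost its call in PC3 DM at equal list length (0.0259) and changed sign in COLO320 DM at equal list length (-0.0382), at -log10 q of at least 5 (-0.0218) and without the longest lists (-0.0105). With a library left out it ranged from 0.128 to 0.147 and from -0.0105 to 0.0183. Against OR genes of other autosomes the PC3 DM value was -0.0014 at equal list length, -0.0112 at -log10 q of at least 5 and 0.0434 without flanks (call lost), and from 0.0410 to 0.0581 with a library left out. Against protocadherins the PC3 DM value passed at equal list length (-0.0657), at -log10 q of at least 5 (-0.118) and without flanks (-0.120), and the COLO320 DM value lost its call at equal list length (-0.0149).

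Perturbed minus vector was -1.28 points in PC3 DM and 2.10 in COLO320 DM in the lists as deposited. The COLO320 DM value includes the longest list, ecSE1 replicate 2, at 36.9%. With 500 bp of overlap, perturbed minus vector was -0.159 in COLO320 DM. With a library left out it ranged from -1.70 to 3.06 and from -1.31 to -0.714. The difference between these effects was -3.38 as deposited and ranged from -0.590 to 4.17. OR genes called between lines rose from 0 to 2 in the lists as deposited and stayed at 0 with any library left out.

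Pearson's r between the log2 density ratio and log10 list length was 0.364 in PC3 DM (permutation p = 0.166, adjusted 0.469, Spearman's rho 0.315, p = 0.235) and 0.0566 in COLO320 DM (p = 0.822, rho -0.168, p = 0.503). Without the 2 libraries farthest from the median length r was -0.0139 and -0.135. The PC3 DM value was 0.521 with covered bp, and from 0.190 to 0.584 with a library left out. The COLO320 DM value was -0.114 at equal list length, -0.158 without the longest lists, 0.488 with the split, and from -0.158 to 0.143 with a library left out. The cause of these changes was not tested.

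Same-numbered libraries of different groups did not deviate together: the median correlation of their deviations over genes was 0.0020 in 36 PC3 DM pairs and -0.0029 in 45 COLO320 DM pairs, and 4 of 16 and 5 of 18 libraries correlated best with their own number. With the replicate number as a block the line difference in share was 2.35 points, the line difference in density 0.063, perturbed minus vector 0.595 in PC3 DM and -1.11 in COLO320 DM, and the difference between those effects 1.71. The block changed none of these calls. Over all genes compared between lines it left 258 called toward PC3 DM and 294 toward COLO320 DM, from 305 and 322, with 0 OR genes among them. List depth in reads is unknown, so a gene without a peak is not shown to lack the mark.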
